A study of Mus musculus with 12 samples.

Results

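The Tribbles genes Trib1, Trib2 and Trib3 were followed across mouse bone marrow cells that carried the leukaemia fusion gene NUP98-HOXD13 together with different forms of MEIS1. The members were all probe sets that the array's annotation assigns to these 3 symbols of 18193, 7 of the 45101 probe sets on the array: 2 for Trib1, 3 for Trib2 and 2 for Trib3. The cells came from 5-fluorouracil-treated F1 mice of the strains C57Bl/6Ly-Pep3b and C3H/HeJ, were infected with a NUP98-HOXD13 retrovirus (ND13-GFP or ND13pac) and were grown for 4 weeks in liquid culture with serum, IL-6, IL-3 and stem cell factor. The sample notes also list 2 days of cocultivation, irradiation at 4000 cGy and 5 ug/ml protamine for every array. A second retrovirus then gave 4 groups of 3 arrays. All 4 carried NUP98-HOXD13. The control group, MIY-ctrl, received a vector that codes for the fluorescent protein YFP, the MEIS1-WT group wildtype MEIS1, the MEIS1-deltaHD group MEIS1 without its homeodomain (also called the deltaHD form here), and the M33-MEIS1 group a construct of that name. M33 is an older name of the Polycomb protein Cbx2, and the sources used here do not say which stretch of it the construct holds. GEO's design text counts the arrays of a condition as independent experiments, and RNA came from sorted cells whose gate is unstated. Whether the constructs went into 1 or several NUP98-HOXD13 cultures is unstated too.

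Tribbles proteins are pseudokinases: they have the fold of a protein kinase but are not thought to work as normal kinases. They act as scaffolds, with a tail that brings the ubiquitin ligase COP1 to a target protein and another stretch that binds kinases of the MAP kinase pathway. In the myeloid lineage the best known target is C/EBP alpha, the transcription factor of granulocyte formation, and forced expression of Trib1 or Trib2 causes acute myeloid leukaemia in mice. Trib3 is known above all as a gene switched on by the stress factors ATF4 and CHOP. MEIS1 is a homeodomain protein that binds DNA beside PBX and HOX proteins and speeds HOX-driven leukaemia. Trib2 stands in the title of the series, so its values here are not independent evidence for it as a MEIS1 effector.

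The signal of a probe set is its brightness on a linear scale, and every array had been scaled to a trimmed mean of 99.97. Differences are given as log2(signal + 16) with their standard error (SE) from 1 limma fit to all 12 arrays, adjusted by Benjamini and Hochberg over the 31762 probe sets kept by a brightness filter. A difference passed when the adjusted p was below 0.05. Adding 16 makes the log2 differences of dim probe sets smaller than their signal ratios. Of the 7 Tribbles probe sets, 6 were kept. The array medians were 17.3 to 21.6 in control and 13.1 to 16.01 in the 9 construct arrays. All 10 blood progenitor markers lay above the array median in every group, so the markers of the labelled cells were present. All 9 monocyte and macrophage markers were lower with each construct than in control, with summed signals of 12370 to 13860 in control, 634.1 to 814.1 with MEIS1-WT, 2539 to 2757 with MEIS1-deltaHD and 4017 to 4461 with M33-MEIS1. Of all kept probe sets, 17.8%, 20.8% and 17.1% were lower with these 3 constructs. The virus came from E86 cells, a fibroblast line. The 8 fibroblast markers summed to 81.93 to 112.4 in control and 28.06 to 72.5 in the constructs, and 7 or 8 of them lay below the array median in every group. B cell (5 of 5), T and NK cell (5 or 6 of 6) and erythroid markers (3 to 5 of 5) lay mostly below the array median in each group. Mast cell and basophil markers, 8 genes, summed to 2312 to 3280 in control, 1634 to 1716 and 2007 to 2147 with MEIS1-WT and the deltaHD form, and 3791 to 4064 with M33-MEIS1. The part of these shifts in the results that follow was not tested. In RNA from mixed cells, fewer cells of a type and less RNA per cell cannot be told apart.

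RefSeq's promoter table (build GRCm38.p6, 250 bases before to 50 after each gene's start) held 2 of the 3 Tribbles genes, Trib2 and Trib3. The stretches are shown 5′ to 3′ on the gene's strand because the study changed a MEIS protein and because Trib3 is a known ATF4 and CHOP gene. Capitals mark matches to the motifs searched.
Trib2, chr12:15816941-15816969, minus strand: TGATTGATgggctccgggctcaaTGACAG
Trib3, chr2:152344028-152344057, minus strand: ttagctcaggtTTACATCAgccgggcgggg
In Trib2 the first capitals match TGATTNAT, a PBX-HOX site, and the second match TGACAG, the core bound by MEIS proteins. They do not overlap and run from 184 to 156 bases before the start in the table. The MEIS match lies inside the annotated span of Trib2, and the PBX-HOX match is not wholly inside it. In Trib3 the capitals match TGATGNAA, a core of the joint ATF4 and C/EBP site, on the other strand, beginning 15 bases after the start and inside the annotated gene. Over 32851 promoters searched on both strands, TGACAG was found in 19.2%, TGATTNAT in 3.22% and TGATGNAA in 3.97%. The 2 motifs of Trib2 occurred in 1 promoter together in 0.642%, and within 30 bases of each other in 0.0913%, or 30 promoters, where the limit of 30 bases was chosen after the match was seen. The Trib2 window held no match to TGATGNAA, to the C/EBP core TTGCNNAA (10.8% of promoters) or to the E2F motifs GGCGGGAA, TTTGGCGC and TTTCCCGC (3.21%). That of Trib3 held none to TGACAG, TGATTNAT, TTGCNNAA or the E2F motifs. A match is a run of letters and not a shown binding site.

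Trib2 rose with wildtype MEIS1 and with neither of the other constructs, on the brightest of its 3 probe sets. The signal of 1426640_s_at was 10.9, 29.4 and 17.3 on the control arrays and 53.8, 75.7 and 55.2 with MEIS1-WT. It was 17.3, 13.05 and 7.77 with MEIS1-deltaHD and 11.4, 13.2 and 8.19 with M33-MEIS1. All 3 MEIS1-WT arrays lay above all 9 others, and the other 3 groups overlapped. The probe set was above the filter's level on 9 of 12 arrays, all 3 of MEIS1-WT and 2 of 3 in each other group, so the folds and ranks below are against dim groups and depend on the 16 added to each signal.

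The mean was 61.6 ± 12.3 (SD, n = 3) with MEIS1-WT against 19.2 ± 9.39 (n = 3) in control, 3.2 times as high (log2 difference 1.16 ± 0.205 SE, adjusted p = 1.04e-04). Set against MEIS1-deltaHD, at 12.7 ± 4.76, the ratio was 4.85 (log2 difference 1.44 ± 0.205, adjusted p = 6.09e-05). Against M33-MEIS1, at 10.9 ± 2.55, it was 5.63 (log2 difference 1.52 ± 0.205, adjusted p = 1.95e-05). So the loss of the homeodomain and the M33 fusion each went with a Trib2 signal below that of wildtype MEIS1, by a direct test of the constructs. The probe set ranked 156 from the highest of 31762 by log2 difference against control, 39 against MEIS1-deltaHD and 21 against M33-MEIS1. Of 6 megakaryocyte markers, 1 was higher and 1 lower with MEIS1-WT than in control, and 3 were higher and 0 lower than with MEIS1-deltaHD. Over all kept probe sets 13.1% were higher and 17.8% lower than in control, and 2.11% higher and 2.41% lower than with MEIS1-deltaHD. The summed signal of the 6 markers was 1475 to 2164 with MEIS1-WT, 909.4 to 1078 in control, 607.7 to 809.5 with MEIS1-deltaHD and 1100 to 1558 with M33-MEIS1. That sum was mostly Pf4 (mean 523.5 in control and 1395 with MEIS1-WT), while Itga2b was at 394.7 and 380.4 and Vwf at 18.3 and 3.51. Ppbp was at 47.81 and 76.9, Gp9 at 20.85 and 34.87 and Gp1bb at 15.7 and 17.44. The part of these markers in the Trib2 difference was not tested.

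Neither altered construct differed from control in Trib2 beyond the test. The log2 difference was -0.28 with MEIS1-deltaHD (adjusted p = 0.321, 95% interval -0.70 to 0.15) and -0.36 with M33-MEIS1 (adjusted p = 0.21, interval -0.783 to 0.068). Between the altered constructs it was -0.08 (adjusted p = 0.935, interval -0.508 to 0.343). All of these intervals include 0 and a modest fall, so equal levels were not shown.

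The other Trib2 probe sets were dim and did not show the rise. Probe set 1426641_at read 13.7, 7.22 and 4.11 in control, 10.99, 9.48 and 13.2 with MEIS1-WT, 7.46, 8.09 and 8.16 with the deltaHD form, and 0.744, 6.07 and 3.02 with M33-MEIS1. It met the filter on exactly 3 arrays, the smallest number allowed, 1 of control and 2 of MEIS1-WT. The MEIS1-WT arrays overlapped those of control and lay above those of the other 2 groups. None of its 6 differences passed in limma, and 1 had an unadjusted p below 0.05: 0.51 ± 0.2135 between MEIS1-WT and M33-MEIS1 (adjusted p = 0.218). Against control the difference with MEIS1-WT was 0.18 (adjusted p = 0.577, 95% interval -0.263 to 0.621).

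Probe set 1459852_x_at was above the filter's level on 0 of 12 arrays, with signals of 0.141 to 7.08. Fitted without the filter, none of its differences passed in limma, 0 of 6 also without adjustment. After each probe set was centred on its own mean, 1426640_s_at and 1426641_at differed by a root mean square of 0.566 log2 units over the 12 arrays, and by 1.158 at most. By the array maker's naming, an s probe set holds probes shared by several transcripts, which may belong to other genes, and an x probe set holds probes that resemble other sequences. The probe sequences were not analysed here, so a share of other transcripts in 1426640_s_at was not tested.

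**Figure D1:**
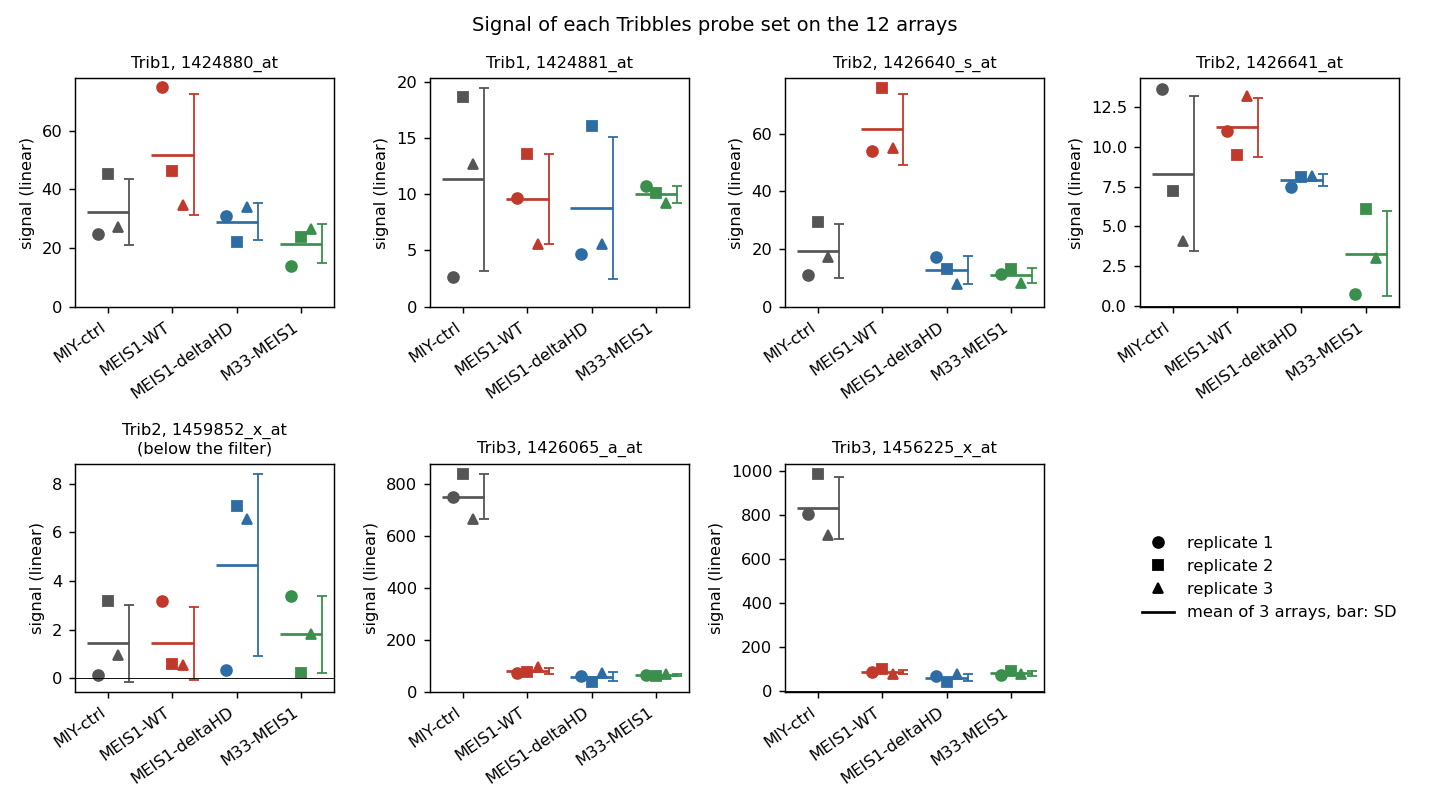
Linear signal (vertical axis, starting near 0 in each panel, with its own scale) of the 7 Tribbles probe sets on the 12 arrays, by group. Points are single arrays, horizontal lines group means of 3 arrays and vertical bars the SD. Trib2 1426640_s_at is 53.8 to 75.7 with MEIS1-WT and at most 29.4 elsewhere, and both Trib3 probe sets are at 664.9 or more in control and at 98.3 or less with every construct.

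Trib1, the relative closest to Trib2 in its action on C/EBP alpha, was highest with MEIS1-WT on 1 of its 2 probe sets. The signal of 1424880_at was 24.8, 45.2 and 27.1 in control, 74.8, 46.2 and 34.6 with MEIS1-WT, 30.9, 22.1 and 34.0 with the deltaHD form, and 14.0, 23.8 and 26.5 with M33-MEIS1. The MEIS1-WT arrays lay above those of both altered constructs, by only 34.6 against 34.0 at the nearest pair of arrays, and overlapped control. Group means were 32.4 ± 11.2 in control and 51.9 ± 20.7 with MEIS1-WT, against 29.0 ± 6.18 with MEIS1-deltaHD and 21.4 ± 6.60 with M33-MEIS1 (SD, n = 3 each).

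Of the 6 comparisons of this probe set, 1 passed: MEIS1-WT was above M33-MEIS1 by 0.83 ± 0.212 (SE, adjusted p = 0.0185), a signal ratio of 2.42. That call was lost without MEIS1-WT replicate 1 (0.60, adjusted p = 0.161) and without M33-MEIS1 replicate 1 (0.68, adjusted p = 0.108). It was also lost without the brightness filter (adjusted p = 0.0642) and without the intensity trend (adjusted p = 0.074). The difference from MEIS1-deltaHD was 0.56 (adjusted p = 0.168, 95% interval 0.119 to 0.999).

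Against control, Trib1 1424880_at with MEIS1-WT differed by 0.47 (adjusted p = 0.101, 95% interval 0.029 to 0.909). The same difference passed after quantile normalization (0.66, adjusted p = 0.0178) and after scaling each array to its median (0.72, adjusted p = 0.00566), as well as without control replicate 2 (0.65, adjusted p = 0.0339) or MEIS1-WT replicate 3 (0.66, adjusted p = 0.0327). The direction with MEIS1-deltaHD was not settled, at -0.09 (adjusted p = 0.779) as deposited, 0.14 after quantile normalization and 0.25 after median scaling. With M33-MEIS1 the difference from control was -0.36 (adjusted p = 0.221).

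The second Trib1 probe set, 1424881_at, was dim and scattered. It read 2.6, 18.7 and 12.7 in control, 9.63, 13.6 and 5.59 with MEIS1-WT, 4.72, 16.04 and 5.57 with the deltaHD form, and 10.7, 10.1 and 9.17 with M33-MEIS1. All groups overlapped, it was above the filter's level on 6 of 12 arrays, and none of its 6 differences passed in limma, 0 also without adjustment (adjusted p from 0.732 to 0.972). The 2 Trib1 probe sets differed by a root mean square of 0.446 log2 units after centring, and by 0.921 at most.

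Trib3 went the other way: it fell with every construct, wildtype or altered. Probe set 1456225_x_at read 803.2, 986.4 and 711.2 in control, 84.7, 98.3 and 78.3 with MEIS1-WT, 66.5, 41.5 and 74.9 with the deltaHD form, and 72.3, 90.4 and 76.0 with M33-MEIS1. Probe set 1426065_a_at read 750.1, 836 and 664.9 in control, 72.2, 75.1 and 94.3 with MEIS1-WT, 61.4, 38.8 and 72.3 with the deltaHD form, and 63.1, 62.8 and 70.0 with M33-MEIS1. On both probe sets all 3 control arrays lay far above all 9 construct arrays.

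On 1456225_x_at the group means were 833.6 ± 140.1 in control and 87.1 ± 10.2 with MEIS1-WT, against 61.0 ± 17.4 with MEIS1-deltaHD and 79.6 ± 9.57 with M33-MEIS1 (SD, n = 3 each). The control mean was 9.57, 13.7 and 10.5 times that of the wildtype, deltaHD and M33-MEIS1 groups. The log2 differences were -3.04, -3.48 and -3.14 (SE 0.147 each), with adjusted p of 1.67e-13, 2.59e-14 and 3.15e-13. The second probe set, with group means of 750.3 ± 85.5, 80.5 ± 11.99, 57.5 ± 17.1 and 65.3 ± 4.08 in the same order, gave -2.99, -3.40 and -3.23 (SE 0.143 each), with adjusted p of 1.32e-13, 2.39e-14 and 1.24e-13. Both probe sets were among the 92 lowest of 31762 in each of these comparisons, and after centring they differed by a root mean square of 0.155 log2 units. That distance was 0.446 between the Trib1 probe sets and 0.566 between those of Trib2.

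Among the constructs no difference of Trib3 passed. MEIS1-WT lay above MEIS1-deltaHD by 0.44 on 1456225_x_at (adjusted p = 0.0991, 95% interval 0.139 to 0.748, arrays not overlapping) and by 0.41 on 1426065_a_at (adjusted p = 0.117, arrays overlapping). Without MEIS1-deltaHD replicate 3 these became 0.58 (adjusted p = 0.0377) and 0.56 (adjusted p = 0.0331), and so passed. MEIS1-WT and M33-MEIS1 differed by 0.11 (adjusted p = 0.794) and 0.24 (adjusted p = 0.435). M33-MEIS1 and MEIS1-deltaHD differed by 0.33 (adjusted p = 0.432) and 0.17 (adjusted p = 0.734). The 3 comparisons with control share the same control arrays, so the fall of Trib3 in each rests on 1 set of 3 control values.

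**Figure D2:**
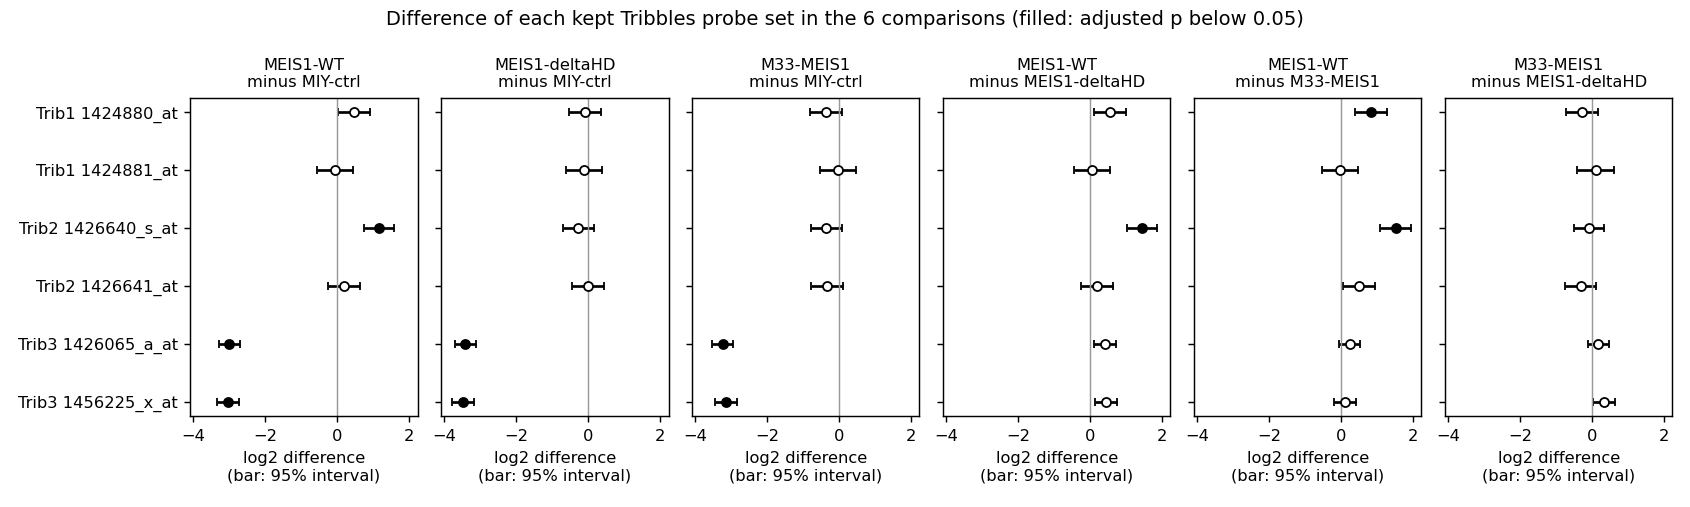
Log2 difference (horizontal axis, log2(signal + 16) scale) of the 6 Tribbles probe sets kept by the filter, 1 panel for each of the 6 comparisons. Points are limma estimates, bars 95% intervals, and filled points have an adjusted p below 0.05. Trib3 is filled at -3.48 to -2.99 in the comparisons with control, and Trib2 1426640_s_at is filled at 1.16, 1.44 and 1.52 in those that involve MEIS1-WT.

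Calls of this kind were frequent on the whole array against control and rare between constructs. With MEIS1-WT, 3 of the 6 kept Tribbles probe sets passed against control, 1 higher and 2 lower, where 30.9% of all kept probe sets passed, 13.1% higher and 17.8% lower. With MEIS1-deltaHD 2 of 6 passed, both lower, against 34.5% of all, 13.7% higher and 20.8% lower. With M33-MEIS1 2 of 6 passed, both lower, against 28.8% of all, 11.8% higher and 17.1% lower. Passing against control was thus common in itself.

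Between constructs the background was small. For MEIS1-WT against MEIS1-deltaHD 1 of 6 passed, where 4.52% of all passed, 2.11% higher and 2.41% lower. In the same limma fit 4 of the 6 had an unadjusted p below 0.05, among them both Trib3 probe sets. The shares of all, here and below, are at the adjusted threshold, so counts at unadjusted p have no background beside them. For MEIS1-WT against M33-MEIS1 2 of 6 passed, both higher, where 5.54% of all did, 2.19% higher and 3.35% lower. For M33-MEIS1 against MEIS1-deltaHD 0 of 6 passed in limma and 1, Trib3 1456225_x_at, had an unadjusted p below 0.05, where 0.491% of all passed, 0.438% higher and 0.0535% lower.

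The balance of higher and lower calls over the whole array depended on scaling. Of the calls against control, 42.35% were higher with MEIS1-WT, 39.82% with the deltaHD form and 40.81% with M33-MEIS1. After quantile normalization these shares were 54.95%, 54.51% and 53.56%, and after median scaling 79.14%, 84.28% and 81.88%, as the median of all probe sets moved up by 0.227, 0.311 and 0.224. For MEIS1-WT against MEIS1-deltaHD the share went from 46.59% to 23.54% under median scaling, and for M33-MEIS1 against MEIS1-deltaHD from 89.1% to 78.38%. The Trib2 and Trib3 calls kept their direction and passed under both scalings. Trib3 1456225_x_at was at -2.68, -3.02 and -2.80 against control under median scaling, and Trib2 1426640_s_at at 1.38 with MEIS1-WT.

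The mRNA of the C/EBP factors, whose family member C/EBP alpha is the protein target of Trib1 and Trib2, was lower with MEIS1-WT. Of 5 measured members, 5 fell against control and 0 rose, with a median log2 difference of -1.18 (median of all kept probe sets -0.104, share of all that were lower 17.8%). That median is the value of Ddit3, the gene of CHOP, which is counted again among the stress genes below. With MEIS1-deltaHD and with M33-MEIS1, 3 of the 5 fell and 0 rose in each (medians -0.94 and -0.87, against -0.145 and -0.117 for all). These were Cebpb, Cebpg and Ddit3, where 20.8% and 17.1% of all kept probe sets were lower.

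The members moved by very different amounts. Cebpa itself was 464.5 ± 21.9 in control and 399.2 ± 14.0 with MEIS1-WT (log2 difference -0.21 ± 0.0787, adjusted p = 0.0458), 495 ± 29.5 with MEIS1-deltaHD and 466 ± 14.5 with M33-MEIS1. That call is marginal: it turned to 0.15 under median scaling (adjusted p = 0.396). It was also lost without control replicate 1 or 2, without any of the 3 MEIS1-WT arrays, without MEIS1-deltaHD replicate 2 or 3, or without M33-MEIS1 replicate 2 (adjusted p from 0.0509 to 0.134). Against MEIS1-deltaHD, Cebpa was lower with MEIS1-WT by -0.30 (adjusted p = 0.0269), which was lost in 5 of the 12 fits that leave out an array: without any of the MEIS1-WT arrays or without MEIS1-deltaHD replicate 1 or 3 (adjusted p from 0.0557 to 0.171).

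Cebpb, the C/EBP factor of monocytes and of emergency granulocyte formation, had a larger and steadier difference. It read 1290 ± 77.2 in control, 408.5 ± 24.1 with MEIS1-WT, 666.7 ± 46.2 with the deltaHD form and 698.9 ± 41.04 with M33-MEIS1. The arrays of control, of MEIS1-WT and of the altered constructs did not overlap. It fell with all constructs (-1.62, -0.94 and -0.87, adjusted p = 2.79e-13, 4.31e-09 and 2.02e-08), and was lower with MEIS1-WT than with MEIS1-deltaHD (-0.69, adjusted p = 4.48e-06). A second Cebpb probe set passed in the same comparisons. These are levels of mRNA, and the C/EBP proteins on which Tribbles proteins act were not measured.

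Cebpd, another C/EBP factor of granulocytes, read 149.4 ± 61.9 in control and 72.8 ± 7.78 with MEIS1-WT, against 181.7 ± 22.4 with MEIS1-deltaHD and 195 ± 6.56 with M33-MEIS1. Cebpd was lower with MEIS1-WT than in control (-0.83, adjusted p = 5.94e-04) and than with MEIS1-deltaHD (-1.15, adjusted p = 1.06e-04). Cebpg, a partner of ATF4, fell with all 3 constructs, from 593.3 in control to 192.5, 160.7 and 208.1. Ddit3, which codes for the stress factor CHOP, fell from 487.2 ± 12 to 207.7 ± 26.5, 140 ± 44.2 and 144.1 ± 31.65. Its second, dimmer probe set passed in no comparison. Under median scaling the C/EBP list had 4 lower and 0 higher with MEIS1-WT, but 2 higher and 3 lower with each altered construct.

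Genes of granulocytes that C/EBP factors are known to drive were lower with MEIS1-WT than with the altered constructs. Of 13 measured, 0 were higher and 9 lower than with MEIS1-deltaHD (median -0.52, all probe sets 0.022), and 0 higher and 10 lower than with M33-MEIS1 (median -0.57, all 0.009). Of all kept probe sets, 2.41% and 3.35% were lower in these comparisons. The 13 include the dim genes Camp and Ltf, which met the filter only with the help of the altered constructs. In control, MEIS1-WT, MEIS1-deltaHD and M33-MEIS1, Camp was above its level on 1, 1, 3 and 3 arrays and Ltf on 0, 1, 2 and 2. Against control the shares of all were 13.1%, 13.7% and 11.8% higher and 17.8%, 20.8% and 17.1% lower with the 3 constructs. Against control 0 of the 13 were higher and 8 lower with MEIS1-WT (5 lower after quantile normalization, 1 higher and 4 lower after median scaling), 4 higher and 4 lower with MEIS1-deltaHD, and 5 higher and 4 lower with M33-MEIS1. After median scaling the altered constructs had 6 higher and 3 lower each. The higher ones as deposited were the granule genes Ctsg, Elane, Ngp and Prtn3 with both altered constructs, and Mpo with M33-MEIS1.

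Elane, the neutrophil elastase, was 739.5 ± 311.4 in control, 757.4 ± 29.8 with MEIS1-WT, 2174 ± 208.7 with the deltaHD form and 1893 ± 130.6 with M33-MEIS1. Ngp, a protein of neutrophil granules, was 61.7, 38.7, 186.5 and 240.3 in the same order. For both, MEIS1-WT lay below MEIS1-deltaHD (-1.50 and -1.89). Lysozyme (Lyz2) fell with every construct, from 5391 ± 118.7 to 111.5 ± 13.02 with MEIS1-WT, 629.8 ± 22.45 with the deltaHD form and 1345 ± 114.3 with M33-MEIS1. Lcn2, a secreted iron-trapping protein of granules, fell from 459.3 to 76.6, 132 and 136.4, and Csf3r, the receptor for G-CSF, from 315.4 to 113.4, 146.1 and 157. Gfi1, a repressor needed by neutrophils, fell from 332.9 to 157, 226.9 and 240.2, with the latter 2 differences lost under median scaling. Several of these genes also mark myeloid cell types. Of 8 secondary granule markers, 0 were higher and 5 lower with MEIS1-WT than in control, against 13.1% and 17.8% of all kept probe sets. With each altered construct 3 were higher and 2 lower, against 13.7% and 20.8% (MEIS1-deltaHD) and 11.8% and 17.1% (M33-MEIS1) of all. The summed signal of the 8 markers was 5428 to 5837 in control, 707.5 to 823 with MEIS1-WT, 2660 to 3281 with MEIS1-deltaHD and 3784 to 4493 with M33-MEIS1. The fall of that sum with the altered constructs came from Mmp8 (3746 in control, 455.5 with MEIS1-deltaHD and 961.8 with M33-MEIS1), while S100a9 was at 340.5, 766.3 and 1044 in those groups. Over 6 primary granule markers the sum was 14580 to 18300, 15100 to 15770, 22560 to 23890 and 22130 to 25750 in control, MEIS1-WT, deltaHD and M33-MEIS1 arrays.

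**Figure D3:**
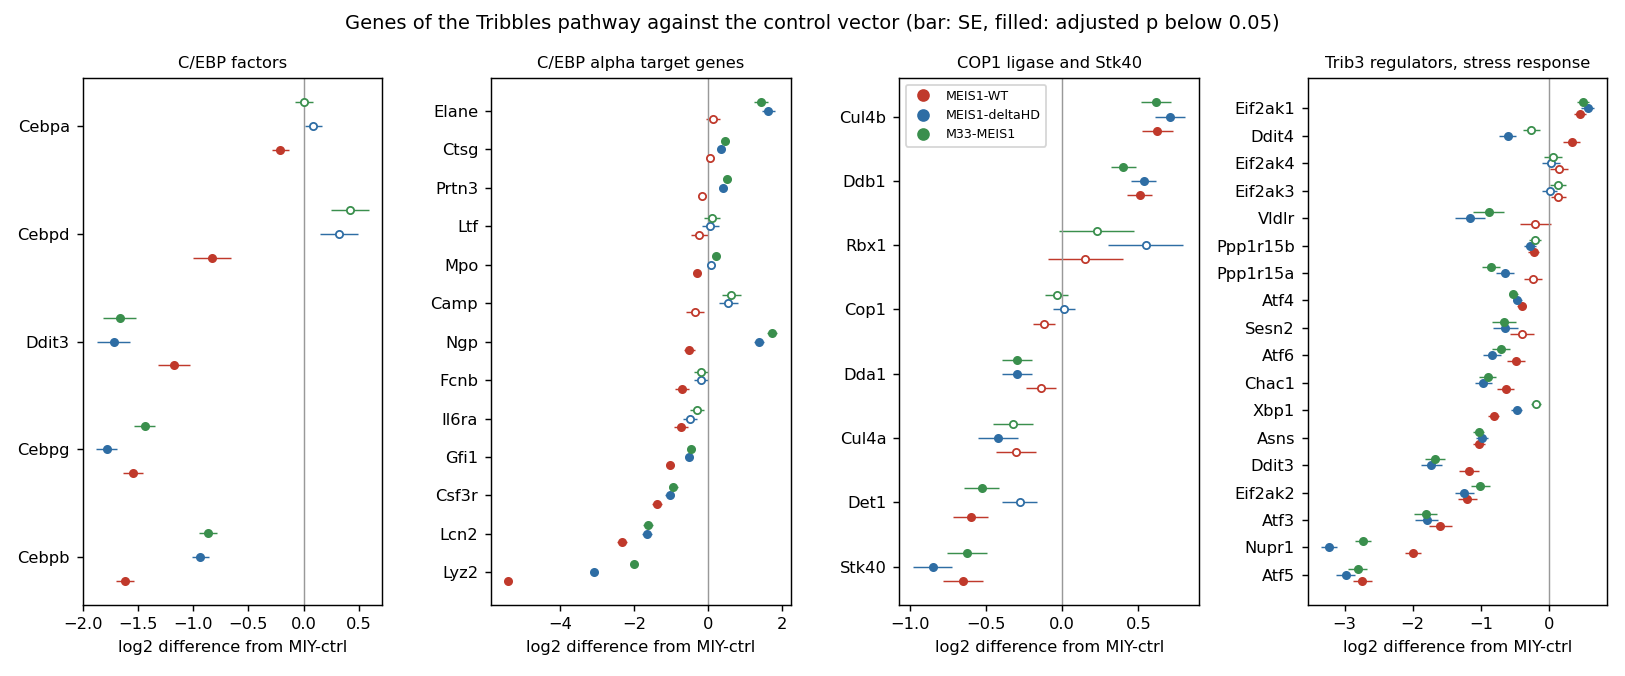
Log2 difference from control (horizontal axis, log2(signal + 16) scale) of listed genes of the Tribbles pathway for each construct. Points are limma estimates, bars the SE, and filled points have an adjusted p below 0.05. Cebpb is at -1.62 with MEIS1-WT and at -0.94 and -0.87 with the altered constructs, Elane is above 1.4 with the altered constructs and 0.13 with MEIS1-WT, and Atf5 is at -2.74, -2.99 and -2.81.

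Among the partners through which Tribbles proteins work, the balance of higher and lower genes depended on scaling. Cop1, the ubiquitin ligase itself, passed in none of the 6 comparisons, at 648.7 in control and 594.6 with MEIS1-WT, against 653.1 with MEIS1-deltaHD and 632.4 with M33-MEIS1. After quantile normalization its difference with MEIS1-WT, -0.12 as deposited, was -0.22 and passed (adjusted p = 0.0214). Of the 8 measured genes of the COP1 ligase list, 2 were higher and 2 lower with MEIS1-WT, and 2 were higher and 3 lower with each altered construct (medians -0.13, -0.14 and -0.17). Over all kept probe sets the shares higher and lower were 13.1% and 17.8% with MEIS1-WT. They were 13.7% and 20.8% with MEIS1-deltaHD and 11.8% and 17.1% with M33-MEIS1, and the medians of all were -0.104, -0.145 and -0.117. The same shares apply to the MAP kinase, AKT and other COP1 substrate counts below, as deposited. Under median scaling the counts were 2 higher and 0 lower, 4 higher and 1 lower, and 3 higher and 0 lower, and the medians 0.22, 0.34 and 0.18. Between MEIS1-WT and MEIS1-deltaHD, 0 of the 8 passed in limma, where 4.52% of all did, and 1 had an unadjusted p below 0.05.

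Members behind short counts are named here and elsewhere after their values were seen. Higher in all 3 comparisons with control were the cullin Cul4b (280.8 to 439.6 with MEIS1-WT) and its adaptor Ddb1 (611.4 to 875.7). Lower in some were Det1 (with MEIS1-WT and M33-MEIS1), Dda1 (with both altered constructs) and Cul4a (with MEIS1-deltaHD), but all of these calls were lost under median scaling, where Dda1 (0.18 and 0.04) and Cul4a (0.04) changed sign. Stk40, a pseudokinase related to the Tribbles family, was lower in all 3: 144.5 ± 20.7 in control, 85.7 ± 5.67 with MEIS1-WT, 72.5 ± 6.02 with the deltaHD form and 88.1 ± 14.9 with M33-MEIS1. Its call held under median scaling with MEIS1-deltaHD (-0.41, adjusted p = 0.0241) and was lost with MEIS1-WT (-0.33, adjusted p = 0.0899) and M33-MEIS1 (-0.31, adjusted p = 0.122).

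Among MAP kinase kinases and MAP kinases, 1 of 8 was higher and 0 lower with MEIS1-WT, 1 higher and 2 lower with MEIS1-deltaHD, and 0 higher and 1 lower with M33-MEIS1. Besides Map2k1, these were Map2k3 (higher with MEIS1-WT), Map2k4 (higher with MEIS1-deltaHD) and Mapk9 (lower with both altered constructs). Under median scaling the counts were 4 higher, 5 higher and 4 higher, with 0 lower each time, and Mapk9 with MEIS1-deltaHD was at 0.07. Map2k1, the kinase MEK1 that Tribbles proteins bind, read 492.2, 420.5, 372.8 and 414.8 in the control, wildtype, deltaHD and M33-MEIS1 groups. It passed with MEIS1-deltaHD (-0.39, adjusted p = 0.00313), a difference that turned to 0.10 under median scaling. Among AKT kinases and partners, 2 of 8 were higher and 2 lower with MEIS1-WT, 1 higher and 2 lower with MEIS1-deltaHD, and 2 higher and 2 lower with M33-MEIS1. Akt1, the kinase reported to be bound by Trib3, was higher with all constructs (372 in control, 497.9, 487.5 and 490.1), and the transcription factor Foxo1, which AKT inhibits, was lower (41.2 in control, 15.7, 18.9 and 16.7). The Foxo1 call with MEIS1-deltaHD, -0.72 as deposited, was lost after quantile normalization (-0.47, adjusted p = 0.0637) and median scaling (-0.39, adjusted p = 0.126). Also counted were Pdpk1 (lower with MEIS1-WT and MEIS1-deltaHD), Foxo3 (lower with M33-MEIS1) and Pdk1 (higher with MEIS1-WT and M33-MEIS1), which codes for a pyruvate dehydrogenase kinase and shares its short name with the AKT-activating kinase Pdpk1. Under median scaling the AKT list had 4 higher and 1 lower, 4 higher and 0 lower, and 4 higher and 1 lower, and the Pdpk1 and Foxo3 calls were lost.

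Of 7 other COP1 substrates, 3 were higher and 0 lower with MEIS1-WT, 1 higher and 0 lower with MEIS1-deltaHD, and 1 higher and 2 lower with M33-MEIS1. The Ets factor Etv4 read 7.08 ± 2.46 in control and 29.5 ± 2.55 with MEIS1-WT, against 6.45 ± 5.92 with MEIS1-deltaHD and 13.01 ± 6.96 with M33-MEIS1. Etv4 was above the filter's level on 6 of 12 arrays (0 of control, 3 of MEIS1-WT, 1 of MEIS1-deltaHD and 2 of M33-MEIS1), so the filter kept it with the help of the group where it is high. The fitted differences of MEIS1-WT from control (0.98 ± 0.224, adjusted p = 0.0015) and from MEIS1-deltaHD (1.05 ± 0.224, adjusted p = 0.00527) are thus against dim values and depend on the 16 added. Against M33-MEIS1 it did not pass (0.68, adjusted p = 0.0866), although the arrays did not overlap. Its relative Etv5 was also higher with MEIS1-WT than in control (150.1 against 82.9, log2 difference 0.75, adjusted p = 4.19e-04). The metabolic enzyme Acaca was higher with all constructs, and Jun and Crtc2 were lower with M33-MEIS1, calls lost under median scaling. There the substrate list had 5, 2 and 1 higher and 0 lower with the 3 constructs.

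Genes of the integrated stress response, the setting in which Trib3 is known to be induced, included many that were lower with every construct. Of 18 measured, 2 were higher and 11 lower with MEIS1-WT (median -0.44), 1 higher and 15 lower with MEIS1-deltaHD (median -0.74), and 1 higher and 12 lower with M33-MEIS1 (median -0.78). Over all kept probe sets the shares lower were 17.8%, 20.8% and 17.1% and the medians -0.104, -0.145 and -0.117. The higher ones were Eif2ak1 with all constructs and Ddit4, an mTOR inhibitor induced by stress, with MEIS1-WT. Under median scaling these counts were 4 higher and 7 lower, 3 higher and 8 lower, and 2 higher and 9 lower. This list was chosen with the fall of Trib3 and of other ATF4 genes known, so it is no independent evidence of direction.

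Atf5, an ATF factor translated under stress, fell with all 3 constructs, from 419.4 ± 35.6 in control to 49.7 ± 13.04 with MEIS1-WT, 39.0 ± 5.70 with the deltaHD form and 46.0 ± 3.53 with M33-MEIS1. The stress-induced Nupr1 fell from 1492 ± 77.9 to 363.5 ± 54.5, 147.4 ± 36.2 and 210.1 ± 2.10, and was higher with MEIS1-WT than with MEIS1-deltaHD (1.23 ± 0.118, adjusted p = 1.93e-07). Atf3 fell from 234.8 to 66.5, 58.0 and 54.8, and asparagine synthetase (Asns), an ATF4 target, from 2079 to 1005, 1041 and 1003. The kinases that start the response did not move as 1 group. Eif2ak2, the RNA-sensing kinase PKR, fell from 238 to 93.9, 91.7 and 109.1, whereas the haem-sensing Eif2ak1 rose from 128.1 ± 2.81 to 181.7 ± 2.12, 197.9 ± 2.18 and 188.1 ± 10.5.

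The differences of Atf4 itself were smaller. Its brightest probe set read 2792 in control and 2116, 2023 and 1940 with the constructs (log2 differences -0.40, -0.46 and -0.52), and all 3 calls were lost under median scaling, where the values were -0.03, 0.04 and -0.16. A second probe set, 1438992_x_at, read 1229, 830.3, 624.9 and 685.9 and passed in the same comparisons. It was also higher with MEIS1-WT than with MEIS1-deltaHD (0.40, adjusted p = 0.0179), where the brightest probe set did not pass (0.07, adjusted p = 0.719). Between MEIS1-WT and MEIS1-deltaHD, 4 of the 18 stress genes were higher (Ddit3, Ddit4, Nupr1 and Vldlr) and 1, Xbp1, lower (median 0.22). Over all kept probe sets 2.11% were higher and 2.41% lower in that comparison, with a median of 0.022. Ddit3 was higher with MEIS1-WT there (0.55, adjusted p = 0.033), a call lost without any of the 3 MEIS1-WT arrays, without MEIS1-deltaHD replicate 1 or 2, under median scaling, without the filter and without the trend (adjusted p from 0.0513 to 0.221). The receptor Vldlr was 55.5 in control, 45.4 with MEIS1-WT, 17.2 with the deltaHD form and 22.3 with M33-MEIS1, and higher with MEIS1-WT than with MEIS1-deltaHD (0.96), which was lost when MEIS1-WT replicate 2 (adjusted p = 0.0617) or replicate 2 of MEIS1-deltaHD (adjusted p = 0.11) was left out.

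A list of factors reported to bind or control Trib2 was also read. Of 10 measured, 2 were higher and 4 lower with MEIS1-WT, 2 higher and 4 lower with MEIS1-deltaHD, and 2 higher and 5 lower with M33-MEIS1. Under median scaling 4 were higher and 1 lower with each construct. Between MEIS1-WT and MEIS1-deltaHD 0 were higher and 2, Cebpa and Cebpb, lower, where 2.11% of all were higher and 2.41% lower. After quantile normalization 1 was higher there, Hoxa9 (0.23, adjusted p = 0.0365), which was at 0.20 as deposited (adjusted p = 0.114). E2f1, a cell cycle factor reported to act on Trib2, was higher with all constructs (72.6 in control, 142.9, 142.8 and 129.7). The other members with a difference from control were Hoxa7, higher with all constructs, Pbx3, lower with both altered constructs, and Foxo3, Cebpa, Cebpb, Meis1 and Hoxa9. Hoxa9, a leukaemia-linked partner of MEIS1, was 2279 in control and 1865 with MEIS1-WT, against 1619 with MEIS1-deltaHD and 1651 with M33-MEIS1. The Hoxa9 calls against control and those of Pbx3 were lost under median scaling, where Hoxa9 was at 0.08, 0.02 and -0.10 and Pbx3 at 0.18 and 0.04 with the altered constructs.

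On its brightest probe set Meis1 itself read 187 ± 18.4 in control, 140.7 ± 10.4 with MEIS1-WT, 109.9 ± 9.96 with the deltaHD form and 116.6 ± 14.6 with M33-MEIS1, and was higher in none of the construct groups. All 3 differences from control passed (-0.37, -0.69 and -0.62) and were lost under median scaling. That with MEIS1-WT was also lost without control replicate 1 (adjusted p = 0.0785) and without MEIS1-WT replicate 1 (adjusted p = 0.0679). Whether this probe set lies in the part of Meis1 that the viruses carry is unstated, so this value does not check the labels.

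For each Tribbles gene, the probe sets of other genes whose centred log2 values lay nearest over the 12 arrays were listed by root mean square (RMS) difference. For Trib2 1426640_s_at, whose own values had an RMS of 0.645 about their mean, these were the adhesion receptor Adgrl4 (RMS 0.234), the drug-efflux pump Abcb1a (0.234), the noncoding RNA Meg3 (0.26), the microtubule protein Map7 (0.271) and the lens filament gene Bfsp2 (0.272). Abcb1a read 20.1 in control and 60.8 with MEIS1-WT, against 10.8 with MEIS1-deltaHD and 9.86 with M33-MEIS1, and Adgrl4 319.3, 808.5, 270 and 270.6. The MEIS core TGACAG was present in the promoters of 3 of these 5 genes (Adgrl4, Abcb1a and Bfsp2), against 19.2% of all promoters, and TGATTNAT in that of Bfsp2, against 3.22%. Here and below a gene counted when any promoter listed for it matched, while these shares are of single promoters. The 5 genes were picked for their likeness to Trib2, and a role of the motifs was not tested.

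For Trib3 1456225_x_at (RMS 1.416 about its mean) the nearest were Atf5 (0.267), the RNA sensor Ddx58 (0.298), the antiviral GTPase Mx1 (0.306), the unnamed gene model Gm20559 (0.308) and the mitochondrial nucleotide kinase Cmpk2 (0.315). Ddx58 read 608.5 in control, 60.1 with MEIS1-WT, 48.9 with the deltaHD form and 64.3 with M33-MEIS1. For 4 of the 5 a promoter was given, and TGATGNAA was in 0 of these 4, TGACAG in 1 (Atf5) and TGATTNAT in 1 (Gm20559). For Trib1 1424880_at (RMS 0.395 about its mean) the nearest were the DNA methyltransferase Dnmt3b (0.153), the phosphatase Dusp16 (0.166), the kinase Sgk1 (0.194), the Golgi protein Golga1 (0.207) and the integrin Itgav (0.211), and 0 of their 5 promoters held any of the 3 motifs. Their distances are smaller than those for Trib2 and Trib3, as are the swings of Trib1 itself, so the 3 lists cannot be ranked against each other.

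**Figure D4:**
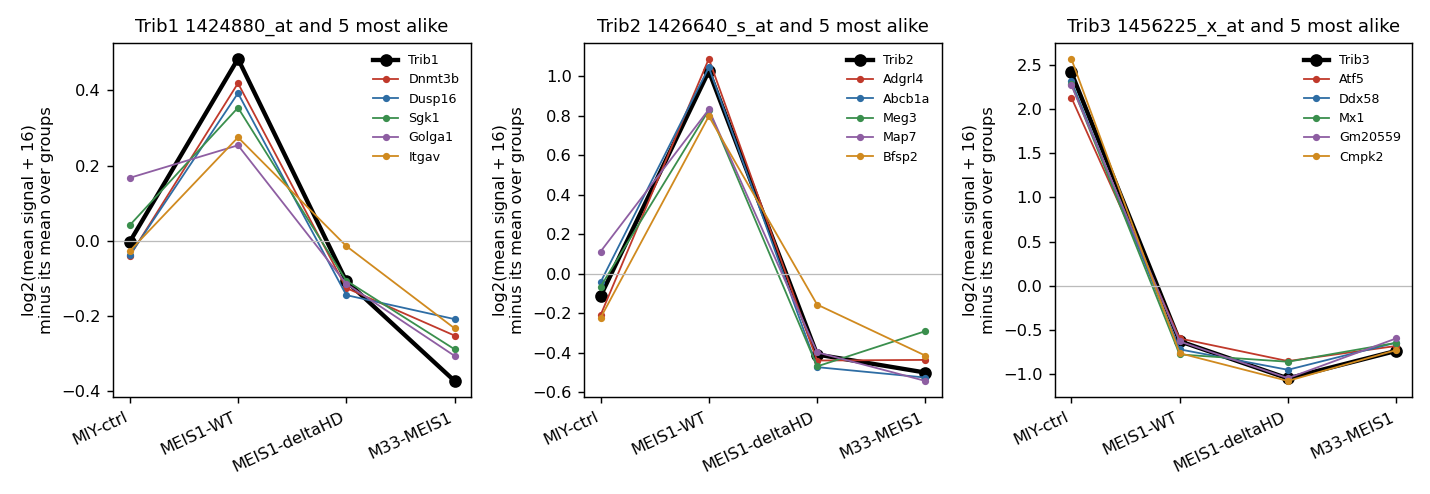
Group means, as log2(mean signal + 16) minus the mean over the 4 groups (vertical axis), of each Tribbles gene (black) and the 5 genes nearest to it over the 12 arrays. Trib2 and its neighbours peak with MEIS1-WT, Trib3 and its neighbours are high in control and low with all 3 constructs, and the panels have different vertical scales.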

How the data were processed

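RNA from 12 samples was hybridised to Affymetrix mouse arrays. The deposited values are array intensity, as linear signals per probe set made with GCOS 1.2, per the submitters' processing notes. The trimmed means show that each array had been scaled to 1 target. Its settings for background and probe summary are unstated. Gene names came from the platform annotation, updated through 34741 Entrez IDs, of which 0 changed. Here 64 array controls were left out, leaving 34945 probe sets with 1 symbol, 932 with several and 9160 with none, and each probe set was tested singly. A probe set was kept when at least 3 arrays had it above their 40th percentile. The log2(signal + 16) values were fitted with limma 3.58.1 in R 4.3.3 (4 groups, eBayes with intensity trend, 8 residual degrees of freedom, two-sided), with 6 comparisons and a threshold of 0.05. Precision is limited by the number of arrays. The fit was tested on simulated data.

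The 8 pathway lists were read on each gene's brightest kept probe set. Named from them by rule were members that passed with an absolute log2 difference of at least 1 against control or between MEIS1-WT and MEIS1-deltaHD, and always Cebpa, Cebpb, Cop1, Map2k1, Atf4, Ddit3 and Meis1. Other members with smaller differences were named outside this rule, after their values were seen. Look-alikes were the 5 genes nearest by RMS difference of centred log2 values. The members, lists and markers were chosen with earlier results of these data known. The alternatives were 10 other settings and leaving out each of the 12 arrays.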

Additional observations from a re-analysis of the deposited data

How the results depend on the processing

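The Trib2 1426640_s_at calls for MEIS1-WT and the Trib3 calls against control kept their direction and stayed past the threshold without any 1 array. The same held in the 10 other settings wherever the probe set was fitted. Under the stricter filter (60th percentile) Trib2 1426640_s_at was kept only through MEIS1-WT, the group where it is high. Its percentile was 69.24 to 73.37 on those arrays and at most 56.56 elsewhere, so that setting is no separate support. Without 1 array Trib2 ranged from 0.984 to 1.362 against control, from 1.308 to 1.550 against MEIS1-deltaHD and from 1.392 to 1.589 against M33-MEIS1, and Trib3 1456225_x_at from -3.141 to -2.909, from -3.612 to -3.281 and from -3.250 to -3.019 with the 3 constructs. Over all Tribbles results in the settings that fitted them, 706 values kept their side and direction, 4 lost the call, 6 gained it and 28 changed sign, the last all in differences that did not pass. The cause of these changes was not tested unless stated.

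Trib1 1424880_at passed for MEIS1-WT against M33-MEIS1 at 0.831, and lost the call with no filter (adjusted p = 0.0642) and with no intensity trend (adjusted p = 0.074), with 0.599 to 1.021 without 1 array. Against control with MEIS1-WT it gained a call at 0.660 (quantile) and 0.716 (median scaling), with 0.238 to 0.659 without 1 array. With MEIS1-deltaHD it changed sign to 0.136 and 0.245, with -0.201 to 0.092 without 1 array. Trib1 1424881_at changed sign against control with M33-MEIS1 (0.148 with log2(signal + 1), 0.130 quantile, 0.113 median scaling, -0.280 to 0.169 without 1 array), MEIS1-deltaHD (0.092 and 0.058, -0.377 to 0.072) and MEIS1-WT (0.026, 0.093 and 0.079, -0.313 to 0.137). Between constructs it ranged without 1 array from -0.018 to 0.297, from -0.143 to 0.084 and from -0.050 to 0.264. Trib2 1426641_at changed sign with MEIS1-deltaHD against control (0.065 with log2(signal + 1), 0.208 quantile, 0.158 median scaling, -0.135 to 0.007 without 1 array). It was below the filter, with no value, in 3 of the 12 fits without 1 array. Without 1 array, M33-MEIS1 minus MEIS1-deltaHD ranged from -0.211 to 0.031 for Trib2 1426640_s_at and from -0.025 to 0.319 for Trib3 1426065_a_at, and MEIS1-WT minus MEIS1-deltaHD from 0.216 to 0.560 and 0.247 to 0.577 on the Trib3 probe sets.

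Of 65 results on named list genes, 53 kept their call under median scaling, 9 lost it and 3 changed sign (Atf4 0.042, Cebpa 0.145, Map2k1 0.103). With no intensity trend 60 kept it. Counts of passing probe sets moved for M33-MEIS1 against MEIS1-deltaHD from 156 to 74 (median scaling), 83 (no filter) and 37 (no trend), for MEIS1-WT against M33-MEIS1 from 1759 to 1166 and against MEIS1-deltaHD from 1436 to 792 (no trend), and for MEIS1-WT against control from 9824 to 6546 with 1 probe set per gene, where fewer were tested. Without 1 array they ranged from 62 to 190, 1226 to 2004, 911 to 1653 and 8128 to 10234, and from 9217 to 11371 and 7604 to 9102 for MEIS1-deltaHD and M33-MEIS1 against control.

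With the replicate number as a block the counts were 9652, 10784 and 8995 against control and 1363, 1655 and 152 between constructs, and no Tribbles call changed (Trib2 1.162, adjusted p = 8.20e-05). The block took the call from Cebpa with MEIS1-WT (adjusted p = 0.0591). No pairing by number was seen: 0 of 18 same-numbered pairs correlated above 0.1 in their deviations (from -0.047 to 0.028), and 4 of 12 arrays correlated best with their own number. With 3 arrays a group this check cannot show whether arrays shared a culture or a batch. Dim probe sets of Trib1 and Trib2 limit what 3 arrays a group can show.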
